A study of Mus musculus with 9 samples.

Results

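The voltage-gated sodium channel subunits described here are 7 genes, chosen by symbol: 4 that encode pore-forming alpha subunits (Scn1a, Scn2a, Scn3a and Scn8a) and 3 that encode auxiliary beta subunits (Scn2b, Scn3b and Scn4b). All 7 were found among the 57010 genes of the deposited table, and all 7 were among the 17967 genes left by the filter on low counts. The 9 libraries, in 3 groups of 3, held RNA of the hippocampus of C57BL/6J mice. CBD mice underwent ligation of the L5 spinal nerve, a surgical model of neuropathic pain, and then received cannabidiol, a non-intoxicating cannabinoid, into the peritoneum at 5 mg/kg for 15 days. SNL mice underwent the same ligation and received solvent. Sham mice had the L5 spinal nerve located but left untied, and also received solvent. The labels give no sex or age for these groups. Nor do they tell whether each library had an animal of its own, so every p-value here rests on the spread between libraries alone, part of which may be technical. Libraries are called by group and replicate number, such as SNL 1. A chi-square per gene was taken for each pair of libraries, where a smaller value means more alike counts. CBD 2 and CBD 3 were by far the closest pair, at 6.59, and the next, CBD 1 and Sham 3, stood at 16.6. CBD 1 stood at 34.4 from CBD 2 and at 44.6 from CBD 3. The cause was not tested.

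Voltage-gated sodium channels open when the membrane depolarizes and carry the inward current that starts and propagates the action potential. One alpha subunit forms the pore, the voltage sensors and the inactivation gate. Beta subunits, which are single-pass membrane proteins with an immunoglobulin-like domain outside the cell, modify gating and bring channels to the surface. In the hippocampus, Scn2a and Scn8a encode the main channels of the axon initial segment of excitatory neurons, Scn1a encodes the channel on which parvalbumin interneurons largely depend, and Scn3a is best known from the immature brain. Sodium channels are also the targets of many drugs against epilepsy and pain.

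The expected counts of a library, which are estimated read counts that need not be whole, summed to between 16972620 and 20470546. Levels are given in CPM, a gene's counts as a proportion of its library's total after scaling by edgeR's trimmed mean of M-values (TMM). Markers of the hippocampus were present in every library: Prox1 of dentate granule cells ran from 56.0 to 139 CPM and Wfs1 of CA1 pyramidal cells from 52.1 to 139.5 CPM. Libraries also held transcripts of neighbouring regions. Pmch, a hypothalamic neuropeptide gene, reached 146 CPM in CBD 1, 200.4 CPM in SNL 1 and 43.9 CPM in SNL 2, while the 6 remaining libraries had at most 0.797 CPM. The summed level of 10 hypothalamic markers was 405, 319 and 75.1 CPM in CBD 1, SNL 1 and SNL 2 and at most 12.4 CPM elsewhere, where up to 3 of the 10 were at 0. A list of 15 thalamic and habenular markers summed to between 1122 and 1501 CPM in CBD, between 1197 and 2972 CPM in SNL and between 844 and 1119 CPM in sham, with SNL 2 the highest. In bulk tissue, fewer cells of a type and less RNA per cell cannot be told apart.

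Scn1a, Scn2a and Scn3a lie on mouse chromosome 2, Scn8a on chromosome 15 and Scn2b, Scn3b and Scn4b on chromosome 9. Stretches of sequence that these genes share matter for how their reads are assigned. Of the 50-base windows of the longest GENCODE transcript (build GRCm38), 5.48% in Scn1a, 7.58% in Scn2a and 8.53% in Scn3a were identical to a window in another sodium channel gene, against 0.0527% in Scn8a and 0% in each beta subunit gene. With 100-base windows the shares were 1.22%, 1.53% and 2.95% for Scn1a, Scn2a and Scn3a in that order, and 0% for the other 4 members. The expected counts of Scn8a, Scn3b and Scn4b were whole numbers, within 0.005, in all 9 libraries. Counts that were not whole, as arise when reads are split between genes, stood in 9 of 9 libraries for Scn1a and for Scn3a, in 8 for Scn2a and in 7 for Scn2b. The part of such splitting in the values below was not tested.

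RefSeq promoter windows on build GRCm38.p6 were at hand for Scn1a, Scn2a, Scn8a, Scn2b and Scn4b, with a pair of starts each for Scn2a and Scn8a. The 250 bases before the start are printed for Scn2a, one of the members with the smallest p-values, and for Scn1a and Scn4b, whose levels were highest and lowest in similar libraries. Capitals mark the only TATAAA found.
Scn2a upstream start (chr2:65620519-65620768, plus strand): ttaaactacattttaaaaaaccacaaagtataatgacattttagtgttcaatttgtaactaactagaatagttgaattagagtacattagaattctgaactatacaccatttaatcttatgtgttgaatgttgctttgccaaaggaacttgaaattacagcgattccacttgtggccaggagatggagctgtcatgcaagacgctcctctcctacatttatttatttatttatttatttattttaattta
Scn2a downstream start (chr2:65668436-65668685, plus strand): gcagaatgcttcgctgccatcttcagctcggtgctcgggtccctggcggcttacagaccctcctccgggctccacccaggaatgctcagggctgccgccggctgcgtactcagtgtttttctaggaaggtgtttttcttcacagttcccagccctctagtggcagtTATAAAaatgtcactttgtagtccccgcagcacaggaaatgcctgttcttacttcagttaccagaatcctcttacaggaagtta
Scn1a (chr2:66440838-66441087, minus strand): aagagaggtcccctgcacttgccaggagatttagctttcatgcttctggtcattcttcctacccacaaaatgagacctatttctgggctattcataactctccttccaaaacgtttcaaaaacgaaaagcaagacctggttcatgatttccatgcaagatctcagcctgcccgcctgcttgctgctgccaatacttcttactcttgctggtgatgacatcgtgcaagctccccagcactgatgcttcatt
Scn4b (chr9:45138374-45138623, plus strand): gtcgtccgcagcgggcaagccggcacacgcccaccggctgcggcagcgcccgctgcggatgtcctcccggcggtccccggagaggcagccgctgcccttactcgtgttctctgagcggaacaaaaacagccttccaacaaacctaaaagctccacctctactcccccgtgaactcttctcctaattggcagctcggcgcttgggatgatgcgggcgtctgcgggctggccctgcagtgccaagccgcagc
Base composition differed widely among these windows. GC content was 29.6% at the upstream and 53.2% at the downstream Scn2a start, 46.8% for Scn1a and 66% for Scn4b, against a median of 52.4% over 32851 mouse promoter windows of the same length. The Scn4b window held 23 CpG dinucleotides and the Scn1a window 4. Both strands were searched, and overlaps between motifs were allowed. TATAAA, the core of a TATA box, was in 12.4% of all windows. GGGCGG, the GC box, was in 32.7% of all windows, TGACG, the core of a cAMP response element, in 17.8%, and TTCAGCACC, the left part of the neuron-restrictive element, in 0.301%. None of these 3 was in the 7 windows of the sodium channel genes. CANNTG, the E-box, was in 66.2% of all windows and in 4 of the 7.

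Scaled to the length of the longest transcript, the beta subunits Scn2b and Scn3b stood highest, at a mean over the 9 libraries of 60.6 and 45.8 CPM per kilobase. Scn8a followed at 27.3, Scn2a at 23.2, Scn1a at 19.3, Scn4b at 17.5 and Scn3a at 5.84 CPM per kilobase. Scn3b was above Scn8a, and Scn4b above Scn3a, in 9 of 9 libraries. The other neighbours in this order changed places: Scn2b was above Scn3b in 7 libraries, Scn8a above Scn2a in 8, Scn2a above Scn1a in 6 and Scn1a above Scn4b in 6. The order is one of levels per kilobase of the longest transcript, and a shorter main isoform would raise a gene in it.

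Among the alpha subunits, Scn1a had 191, 183 and 179 CPM in CBD, 162, 195 and 129.5 CPM in SNL, and 108, 108 and 201 CPM in sham. Sham 3 held the highest of the 9 values and the other sham libraries the lowest, so the groups overlapped. The mean was 184 ± 5.84 CPM in CBD, 162 ± 32.7 CPM in SNL and 139 ± 53.7 CPM in sham (SD, n = 3 each). Scn2a, the alpha subunit that predominates in excitatory axons early in life, had 228, 239 and 255.5 CPM in CBD, 168, 139 and 179 CPM in SNL, and 214, 242 and 199 CPM in sham. All 3 SNL libraries lay below all 6 others.

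Scn3a had 63.3, 61.7 and 76.6 CPM in CBD, 44.0, 44.8 and 45.7 CPM in SNL, and 50.8, 58.2 and 57.6 CPM in sham. The 3 groups did not overlap at all, with CBD on top and SNL at the bottom. Scn8a, which encodes the channel of the mature axon initial segment and node of Ranvier, had 233, 328 and 348 CPM in CBD, 241, 295.5 and 285 CPM in SNL, and 368, 387.5 and 321 CPM in sham. CBD 1 was the lowest of all, and the SNL libraries lay below the sham libraries.

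Of the beta subunits, Scn2b, which is joined to the alpha subunit by a disulfide bond, had 301, 270.0 and 260.3 CPM in CBD, 289, 276 and 284 CPM in SNL, and 279, 298 and 284 CPM in sham. Its level hardly varied: its SD over the 9 libraries on the log2 CPM scale was 0.07, and only 0.996% of the 10639 genes that averaged 10 CPM or more had a smaller one. Scn3b, which binds the alpha subunit without a covalent bond, had 138, 211 and 256 CPM in CBD, 137, 128 and 176 CPM in SNL, and 217, 271 and 177 CPM in sham. The SNL libraries lay just below the sham libraries, and the CBD libraries overlapped both groups.

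Scn4b, the beta subunit linked to resurgent sodium current in fast-spiking cells, had 89.2, 87.3 and 67.5 CPM in CBD, 104, 141 and 64.9 CPM in SNL, and 46.9, 38.3 and 148 CPM in sham. Sham held both its highest and its lowest library. The SD of Scn4b over the 9 libraries was 0.66 on the log2 CPM scale, and 98.6% of the genes that averaged 10 CPM or more had a smaller one. The SDs of Scn3b, Scn1a, Scn2a, Scn3a and Scn8a were 0.40, 0.36, 0.29, 0.27 and 0.26.

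**Figure D1:**
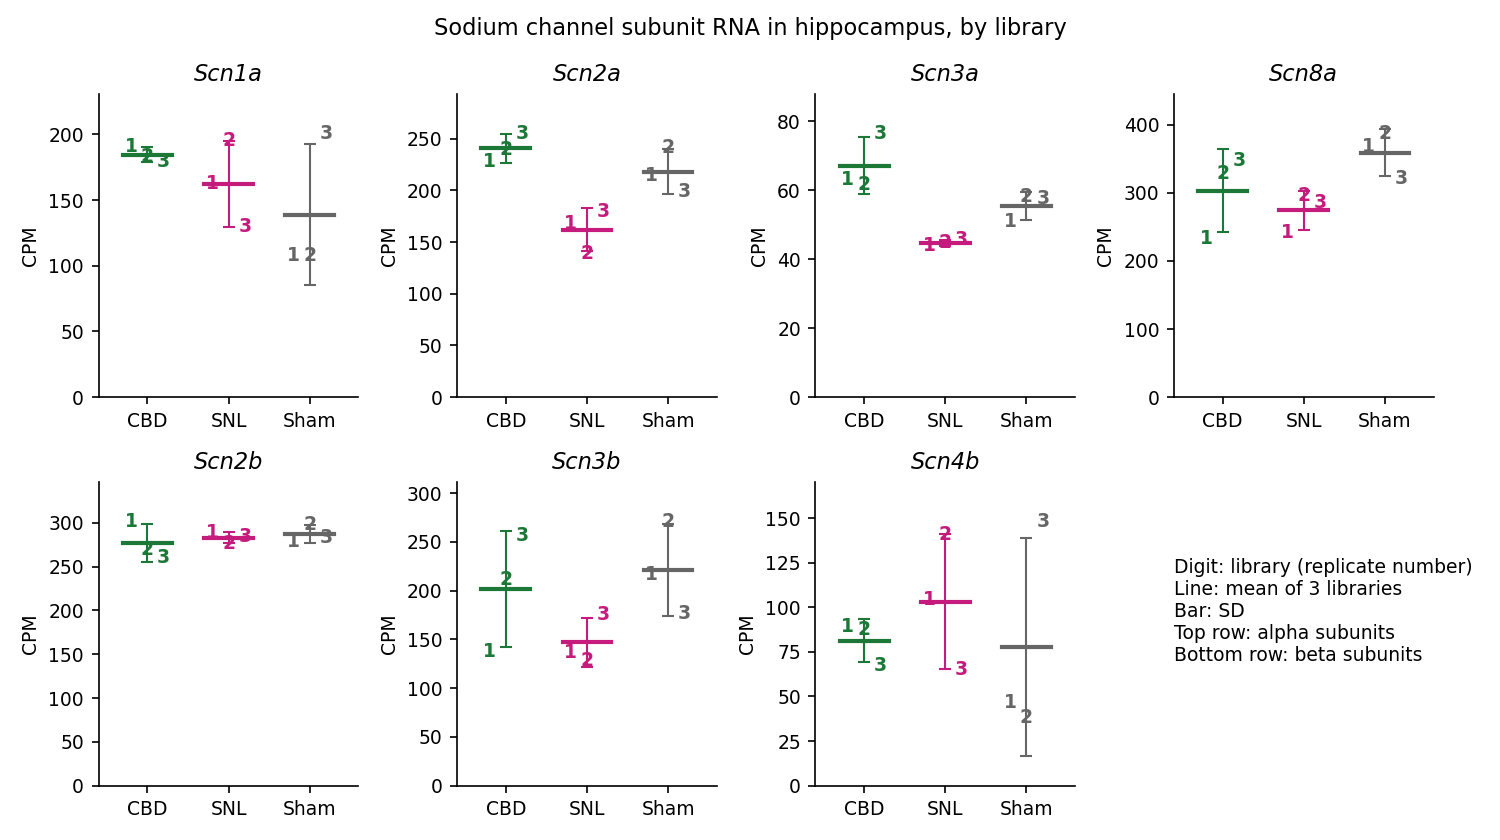
Level of each of the 7 sodium channel genes in CPM (vertical axis, 1 panel a gene) in CBD, SNL and sham, with a digit at the value of each library (its replicate number), a line at the group mean and a bar for its SD. Scn2a and Scn3a are lower in all 3 SNL libraries than in the 6 others, Scn2b is nearly level, and Scn1a and Scn4b have 1 sham library (Sham 3) at the top and 2 at the bottom.

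The first comparison, SNL against sham, sets ligated mice given solvent against sham mice given solvent. Scn2a, Scn3a, Scn8a and Scn3b had lower values in every SNL library than in any sham library, that is, 4 of the 7 members, and none was higher in every SNL library. Over all tested genes, 17.7% did not overlap, 9.81% lower and 7.94% higher in SNL. Scn2a averaged 162 ± 21.1 CPM in SNL and 218 ± 21.8 CPM in sham (SD, n = 3 each), a log2 fold change of -0.43 with a standard error (SE) of 0.12. None of the 7 members had an adjusted p under 0.05 in edgeR's quasi-likelihood F test with Benjamini-Hochberg adjustment, where 0% of all genes passed.

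Before adjustment, 2478 genes (13.8%) had a p under 0.05 in this comparison, with 7.96% of all tested genes lower and 5.83% higher in SNL, and the members among them were the 4 that did not overlap. The DESeq2 Wald test called 363 genes at an adjusted p under 0.05 and none of the 7 members. The 363 were 2.34% of the 15509 genes to which DESeq2 gave an adjusted p, with 0.69% higher and 1.65% lower. Every DESeq2 share given here is of genes with such a p. The edgeR adjusted p was 0.232 for Scn2a, 0.276 for Scn3a, 0.317 for Scn8a and 0.305 for Scn3b. The log2 fold change of Scn3a was -0.31 (SE 0.11), with 44.9 ± 0.866 CPM in SNL and 55.5 ± 4.07 CPM in sham. Scn8a averaged 274 ± 28.9 CPM in SNL and 359 ± 34.3 CPM in sham, a log2 fold change of -0.39 (SE 0.16).

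Scn3b averaged 147 ± 25.4 CPM in SNL and 221.5 ± 47.3 CPM in sham, with a log2 fold change of -0.59 (SE 0.23). The other members differed by less than the spread between libraries. Scn2b had a log2 fold change of -0.02 with a 95% interval of -0.23 to 0.19, Scn1a of 0.23 (-0.29 to 0.74) and Scn4b of 0.41 (-0.59 to 1.41). The median over the 7 members was -0.31, against 0.01 over all tested genes.

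Single libraries carried part of these values. For fits with libraries left out, the share of all tested genes at an unadjusted p under 0.05 was not computed. Without Sham 3 the log2 fold change was 0.59 for Scn1a and 1.28 for Scn4b, and without Sham 2 that of Scn4b was 0.08. The number of members with an unadjusted p under 0.05, 4 with all libraries, was 1 without SNL 1, 1 without Sham 2, 2 without Sham 1 and 5 without Sham 3. Those 5 were not the same set: Scn1a and Scn4b were higher in SNL, Scn2a, Scn8a and Scn3b were lower, and Scn3a was no longer among them. Without the 3 libraries that held hypothalamic transcripts it was 0, with a single SNL library left whose spread is assumed to be that of the other groups. Scn2a then had a log2 fold change of -0.27.

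Markers of cell types and regions moved beside these genes. Over all tested genes in SNL against sham, 51.6% were above 0 and 5.83% were higher with an unadjusted p under 0.05. DESeq2 called 0.69% of genes higher. Of the 15 thalamic and habenular markers, 15 were higher in SNL by the fitted fold change and 13 had an unadjusted p under 0.05, with summed levels of 1197 to 2972 CPM in SNL against 844 to 1119 CPM in sham. The 10 dentate granule markers summed to between 683 and 924 CPM in SNL and between 880.2 and 1327 CPM in sham. By the fitted fold change 9 of the 10 were lower in SNL, 3 with an unadjusted p under 0.05 and 2 called by DESeq2. The 8 CA1 markers summed to between 485 and 776 CPM in SNL and between 728 and 1167 CPM in sham. Of these 8, 7 were lower, 3 with an unadjusted p under 0.05 and 1 called by DESeq2. Of all tested genes 48.4% were below 0 and 7.96% were lower with an unadjusted p under 0.05. DESeq2 called 1.65% of genes lower. The 9 endothelial and pericyte markers were all higher in SNL by the fitted fold change, 6 with an unadjusted p under 0.05 and 4 called by DESeq2, and summed to between 511.5 and 662 CPM in SNL and between 377 and 439 CPM in sham. The 10 oligodendrocyte markers were all higher too, 3 with an unadjusted p under 0.05, at 10550 to 14950 CPM in SNL and 8685 to 11800 CPM in sham. None of the markers of these 5 lists was at 0 in a library. The 10 pan-neuronal markers overlapped, at 6139 to 6519 CPM in SNL and 5903 to 6860 CPM in sham. The part of this in the sodium channel values was not tested.

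The second comparison, CBD against SNL, sets ligated mice given cannabidiol against ligated mice given solvent. Scn2a and Scn3a were higher in every CBD library than in any SNL library, and these were 2 of the 7 members, against 19.3% of all tested genes without overlap, 9.18% higher and 10.1% lower. Scn3a averaged 67.2 ± 8.21 CPM in CBD and 44.9 ± 0.866 CPM in SNL, which is 1.5-fold higher in CBD (log2 fold change 0.58, SE 0.11, 95% interval 0.34 to 0.82). Scn2a averaged 241 ± 14 CPM in CBD and 162 ± 21.1 CPM in SNL, 1.49-fold higher in CBD (log2 fold change 0.57, SE 0.12, 95% interval 0.30 to 0.84). Neither passed edgeR's test, at an adjusted p of 0.306 for both, where 0% of all genes passed.

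Ranked by p among the 17967 genes, Scn3a was number 6 and Scn2a number 35. Before adjustment 2462 genes (13.7%) had a p under 0.05, with 6.5% of all tested genes higher and 7.2% lower in CBD, and Scn2a and Scn3a were the only members among them. The DESeq2 Wald test called 156 genes, 1.3% of the 12034 to which it gave an adjusted p (0.74% higher and 0.557% lower). Of the 156, 2 were members: Scn3a at an adjusted p of 0.00578 and Scn2a at 0.0112. Over the 19 alternative settings the adjusted p ran from 0.00578 to 0.809 for Scn3a and from 0.0112 to 0.809 for Scn2a. DESeq2 was the only setting in which it passed.

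For the remaining members, the log2 fold change of CBD against SNL was 0.18 (SE 0.23) for Scn1a, 0.15 (SE 0.16) for Scn8a, -0.03 (SE 0.10) for Scn2b, 0.46 (SE 0.23) for Scn3b and -0.34 (SE 0.45) for Scn4b. CBD 1 stood apart in Scn8a and Scn3b, with values close to those of the SNL libraries. Without CBD 1, 4 members had an unadjusted p under 0.05, and the share of all tested genes in that fit was not computed. Scn3b averaged 202 ± 59.7 CPM in CBD and 147 ± 25.4 CPM in SNL. The 95% interval of its log2 fold change ran from -0.05 to 0.97. The median over the 7 members was 0.18, and over all tested genes 0.00.

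Fold changes in this comparison followed base composition and transcript length. Across 17642 tested genes, which are not independent replicates, Spearman's rho of the log2 fold change of CBD against SNL was -0.44 with GC content and 0.27 with length. The median GC content of a gene's transcripts was 42.7%, 43.2% and 43.4% for Scn3a, Scn1a and Scn2a. It was 47.8%, 50.4%, 52.6% and 54.5% for Scn3b, Scn2b, Scn8a and Scn4b, and 50.2% in the median tested gene. The longest transcripts of the members ran from 4150 bases in Scn3b to 11436 in Scn8a, against a median of 3220. The rho and the offsets used the median length of a gene's transcripts instead, which was 1589 bases in the median tested gene. By that measure Scn8a, at 987.5 bases, and Scn3b, at 1507, were shorter than the median tested gene. Scn2a had 1810 bases, Scn2b 4307, Scn1a 4754, Scn4b 4982 and Scn3a 6026. With an offset for GC content and length in each library, the log2 fold change was 0.43 (SE 0.12) for Scn2a and 0.33 (SE 0.09) for Scn3a, with an edgeR adjusted p of 0.571 for both, and that of Scn1a was -0.04. Without the 3 libraries with hypothalamic transcripts, 1 from CBD and 2 from SNL, Scn2a stood at 0.46 and Scn3a at 0.60.

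Markers of other cell types also differed between these groups. Over all tested genes in CBD against SNL, 50.1% were below 0 and 7.2% were lower with an unadjusted p under 0.05. DESeq2 called 0.557% of genes lower. The 10 oligodendrocyte markers summed to between 8278 and 9695 CPM in CBD and between 10550 and 14950 CPM in SNL, and 10 of 10 were lower in CBD by the fitted fold change, 6 of them with an unadjusted p under 0.05. The 9 endothelial and pericyte markers were all lower in CBD as well, 3 with an unadjusted p under 0.05 and 1 called by DESeq2, with sums of 484 to 506 CPM in CBD and 511.5 to 662 CPM in SNL. Of 9 microglial markers 8 were lower, 3 with an unadjusted p under 0.05, with sums of 321 to 378 CPM in CBD and 350 to 435 CPM in SNL. The 15 thalamic and habenular markers were all lower, with sums of 1122 to 1501 CPM in CBD and 1197 to 2972 CPM in SNL. Of these 15, 1 had an unadjusted p under 0.05, a proportion close to the 7.2% of all tested genes. None of the markers of these 4 lists was at 0 in a library. The pan-neuronal markers summed to 6309 to 6414 CPM in CBD and 6139 to 6519 CPM in SNL, and the dentate granule markers to 669 to 1261 CPM in CBD and 683 to 924 CPM in SNL. Their part in the values of Scn2a and Scn3a was not tested.

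The remaining comparison, CBD against sham, shares its libraries with the other two. Scn3a was higher in every CBD library than in any sham library, at 67.2 ± 8.21 CPM in CBD and 55.5 ± 4.07 CPM in sham, and was 1 of 7 members without overlap (21.7% of all tested genes did not overlap, 10.6% higher and 11.1% lower). Its log2 fold change was 0.28 (SE 0.11), with an adjusted p of 0.261 in edgeR's test, where 0% of all genes passed. It was also the only member among the 2925 genes (16.3%, with 7.41% higher and 8.87% lower) with an unadjusted p under 0.05. DESeq2 called 380 genes and none of the 7. The 380 were 3.07% of the 12382 genes to which it gave an adjusted p, with 0.953% higher and 2.12% lower. With the offset for GC content and length the log2 fold change of Scn3a was 0.05. Spearman's rho of the fold change with GC content was -0.55 across the 17642 genes of this comparison.

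Scn2a averaged 241 ± 14 CPM in CBD and 218 ± 21.8 CPM in sham, a log2 fold change of 0.14 (SE 0.12) whose interval ran from -0.13 to 0.41. That of Scn8a was -0.24 (SE 0.16), of Scn3b -0.13 (SE 0.23) and of Scn2b -0.05 (SE 0.10). For Scn1a it was 0.41 (SE 0.23), and 0.77 without Sham 3. For Scn4b it was 0.07 (SE 0.45), and 0.94 without Sham 3. The median over the 7 members was 0.07, against 0.00 over all tested genes.

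**Figure D2:**
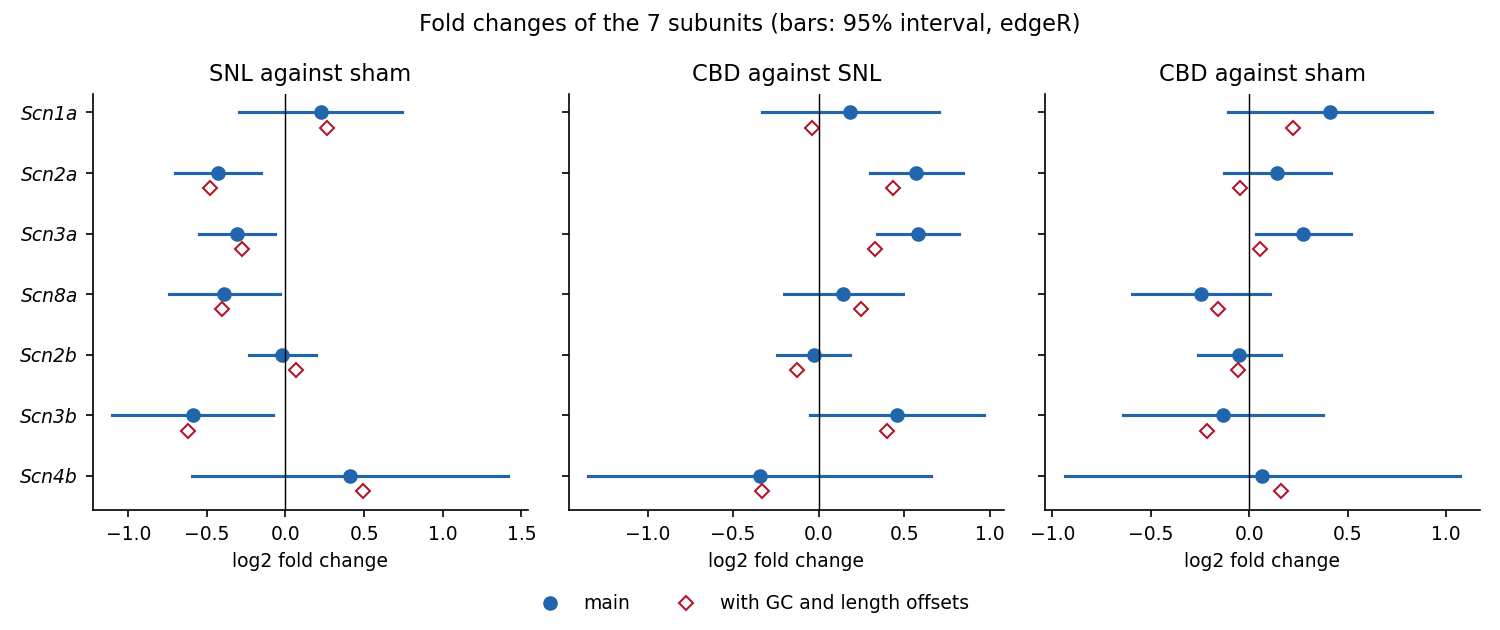
Log2 fold change (horizontal axis) of each sodium channel gene in SNL against sham, CBD against SNL and CBD against sham, with 95% intervals from edgeR's quasi-likelihood fit. In SNL against sham the intervals of Scn2a, Scn3a, Scn8a and Scn3b lie below 0, in CBD against SNL those of Scn2a and Scn3a lie above 0, and in CBD against sham that of Scn3a does; none passed after adjustment over 17967 genes.

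Summed over the 4 alpha subunit genes, the level was 715, 812.5 and 859 CPM in CBD, 616, 674 and 640.1 CPM in SNL, and 741, 795 and 778 CPM in sham. The SNL libraries lay below all others, with a mean of 796 ± 73.7 CPM in CBD, 643 ± 29.2 CPM in SNL and 771 ± 28 CPM in sham. The summed beta subunit level was 529, 569 and 584 CPM in CBD, 530.0, 545 and 525 CPM in SNL, and 543, 607 and 608 CPM in sham, with CBD overlapping SNL. Sums of CPM weight long transcripts more than short ones.

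Scn8a and Scn2a supplied the largest shares of the alpha counts in most libraries. Scn8a supplied between 32.6% and 40.5% of the alpha counts in CBD, between 39.2% and 44.6% in SNL and between 41.2% and 49.7% in sham. Scn2a supplied between 29.5% and 31.8% in CBD, between 20.6% and 28% in SNL and between 25.6% and 30.4% in sham. Scn1a ranged from 20.9% to 26.7% in CBD, from 20.2% to 28.9% in SNL and from 13.6% to 25.8% in sham. Scn3a was the smallest, at 7.59% to 8.92% in CBD, 6.65% to 7.15% in SNL and 6.86% to 7.4% in sham.

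A ratio within a library does not depend on its scaling, and 6 such ratios, chosen after the values were seen, were compared in the 3 comparisons. The count ratio of Scn8a to Scn2a was 1.02 to 1.37 in CBD, 1.43 to 2.13 in SNL and 1.6 to 1.72 in sham, so CBD lay below both other groups. The log2 ratio differed by -0.45 between CBD and SNL and by -0.41 between CBD and sham. In a two-sided exact permutation test both differences had p = 0.1, the smallest that 3 libraries against 3 allow, and 0.6 after Benjamini-Hochberg adjustment over the 18 tests. Scn8a is richer in GC than Scn2a, and with offsets for GC content and length the genes lay closer together. In CBD against SNL the log2 fold changes of Scn8a and Scn2a were 0.25 and 0.43 with the offsets, against 0.15 and 0.57 without them. In CBD against sham they were -0.16 and -0.05 with the offsets, against -0.24 and 0.14 without them. The ratio of Scn3b to Scn2b was 0.464 to 0.62 in SNL and 0.623 to 0.909 in sham, again with an exact p of 0.1 and 0.6 after adjustment. The ratio of Scn3a to Scn2a did not separate CBD from SNL, with a log2 difference of 0.00 and an exact permutation p of 1.

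**Figure D3:**
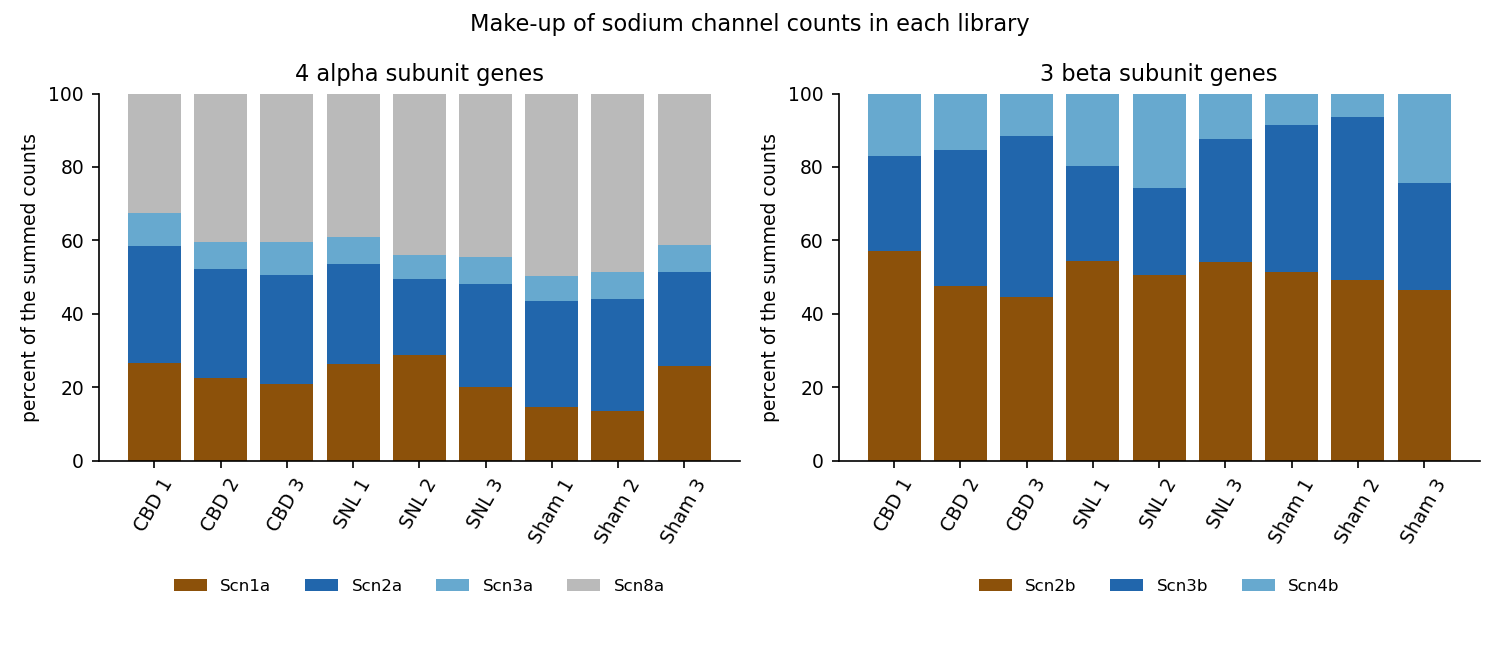
Share of the summed alpha subunit counts (left) and beta subunit counts (right) that each gene supplied, in percent, in each of the 9 libraries ordered CBD, SNL, sham. Scn8a takes 32.6% to 40.5% in CBD and 41.2% to 49.7% in sham, and Scn4b takes the smallest share of the beta counts in Sham 1 and Sham 2 and a much larger one in Sham 3.

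The members were compared with each other by their log2 CPM over the 9 libraries, after centring each gene on its own mean. Likeness was measured by the root mean square difference, where 0 means the same pattern. Scn2a and Scn3a were the closest pair, at 0.14, and Scn8a and Scn3b were 0.21 apart. The nearest member to Scn4b was Scn1a, at 0.36, while Scn1a was about as near to Scn2b (0.36) and Scn3a (0.37), and the pair farthest apart was Scn3b and Scn4b, at 0.94. Parvalbumin (Pvalb), the calcium buffer of fast-spiking interneurons, had 55.4, 53.4 and 51.7 CPM in CBD, 70.3, 105.5 and 58.2 CPM in SNL, and 23.5, 38.5 and 60.4 CPM in sham. Sham 1 and Sham 2 were lowest for Scn1a, Scn4b and Pvalb, while the highest library was Sham 3 for Scn1a and Scn4b and SNL 2 for Pvalb. Pvalb is 1 of 12 interneuron markers, and they did not move together. In SNL against sham 7 of the 12 were above 0, against 51.6% of all tested genes, with Pvalb at 0.94. The other 5 were below 0, among them Lhx6 at -0.61 and Vip at -0.38. The 12 interneuron markers together summed to 1180 to 1717 CPM in CBD, 1269 to 1656 CPM in SNL and 1158 to 1422 CPM in sham, with none at 0 in a library. Their part in the pattern of Scn1a and Scn4b was not tested.

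**Figure D4:**
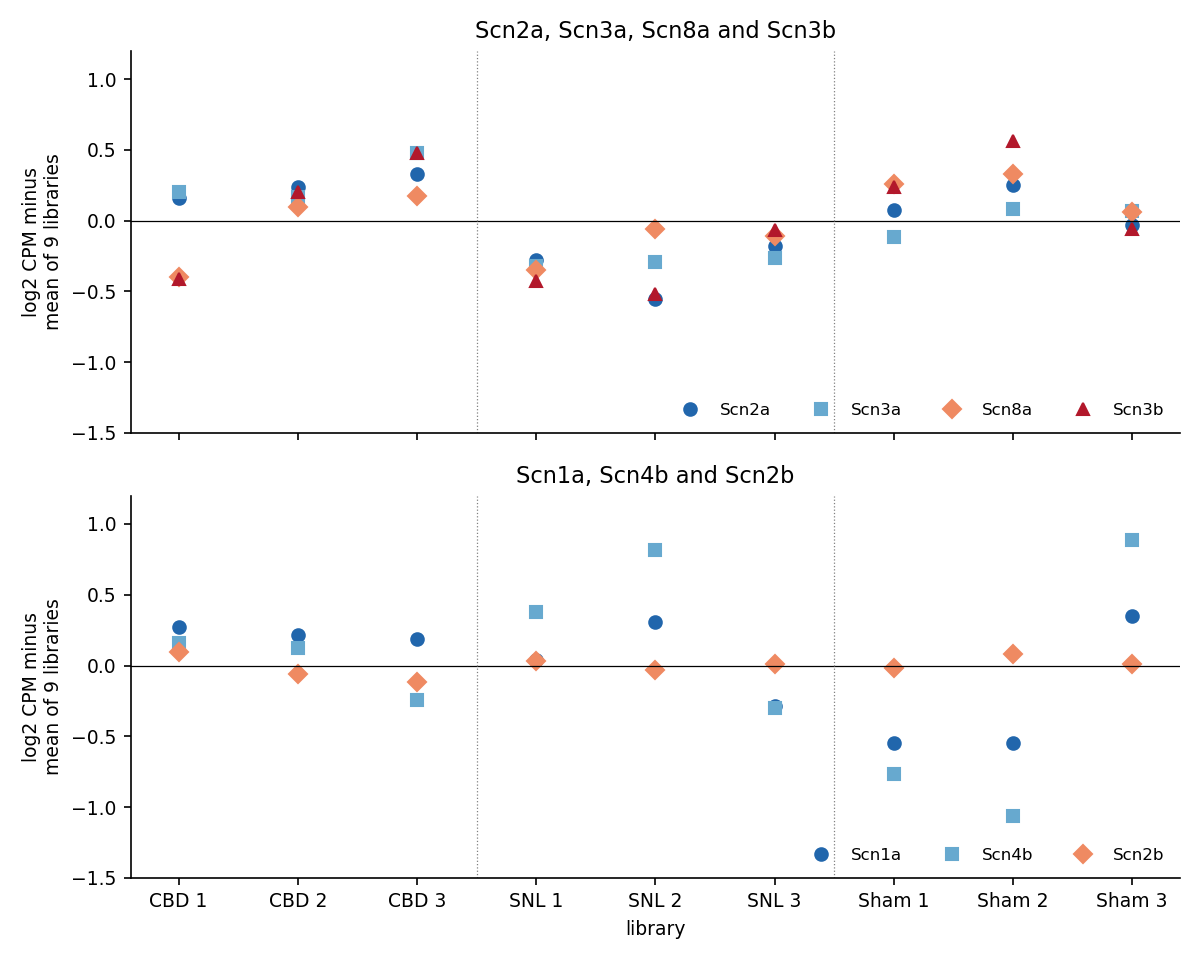
Log2 CPM of each sodium channel gene minus its own mean over the 9 libraries (vertical axis), by library in the order CBD, SNL, sham. Scn2a and Scn3a are above 0 in every CBD library and below 0 in every SNL library, while Scn4b and Scn1a are low in Sham 1 and Sham 2 and high in Sham 3, where Scn3b has the reverse order.

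The 3 genes nearest each member were sought among 10273 named genes that averaged 10 CPM or more. Scn2a was most like Marchf1, a membrane-bound ubiquitin ligase, Map2, a microtubule-associated protein of dendrites, and Pclo, a scaffold of the presynaptic active zone, with differences of 0.06, 0.08 and 0.08. Map2 had 1066, 1170.0 and 1218 CPM in CBD, 794, 661 and 842 CPM in SNL, and 906, 1015 and 969 CPM in sham. Its SNL libraries were the 3 lowest, as for Scn2a, a likeness by which Map2 was chosen. Scn3a was nearest to Dmxl1, Zc3h6 and Slc8a1, a sodium-calcium exchanger, at 0.07, 0.08 and 0.08.

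Scn8a was nearest to Arel1, Dock9 and Pip5k1a at 0.05, 0.06 and 0.08, and Scn1a to Heph, Hspa4l and Eif5a2 at 0.09, 0.11 and 0.11. Among the beta subunits, Scn3b was nearest to Cacna1e, a voltage-gated calcium channel subunit, Tcf4, a transcription factor, and Cpne4, at 0.06, 0.07 and 0.07. Scn2b, which hardly varied, was nearest to Fam32a, Zfp622 and Ppme1 at 0.04 each. Scn4b had the most distant neighbours, Sgpp2, Nefh and Mcf2, at 0.19, 0.19 and 0.22. Nefh, the heavy neurofilament subunit of large axons, had 187.5, 187.0 and 185 CPM in CBD, 210.3, 323 and 159.6 CPM in SNL, and 124.5, 103 and 272 CPM in sham. Sham 1 and Sham 2 were again the lowest, a likeness to Scn4b by which Nefh was chosen.

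Other sodium channel genes were described in the same way. Nalcn, the voltage-insensitive sodium leak channel, had 132, 106 and 115 CPM in CBD, 101, 85.1 and 92.3 CPM in SNL, and 96.2, 92.1 and 103 CPM in sham. It was higher in every CBD library than in any other library. Its log2 fold change of CBD against SNL was 0.34 (SE 0.11, edgeR adjusted p = 0.306).

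Scn9a, best known as an alpha subunit of peripheral pain neurons, had 20.9, 7.33 and 6.89 CPM in CBD, 14.3, 5.31 and 5.79 CPM in SNL, and 5.46, 3.39 and 5.40 CPM in sham. CBD 1, followed by SNL 1, was the highest library for this gene, and these are the libraries with the highest hypothalamic marker sums. Scn7a, an alpha-like channel of glia that responds to sodium, had 8.99, 3.77 and 3.71 CPM in CBD, 4.32, 2.997 and 2.71 CPM in SNL, and 3.01, 2.88 and 3.47 CPM in sham. The genes of skeletal muscle (Scn4a) and of sensory neurons (Scn10a and Scn11a) did not pass the filter and stood at 0.541 CPM or less in every library.

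Genes of the axon initial segment, where sodium channels are held by ankyrin G and spectrin, were counted as a list of 12. In SNL against sham 10 of 12 had a fold change below 0, 7 with an unadjusted p under 0.05, and their median log2 fold change was -0.32. Of all tested genes 48.4% were below 0 and 51.6% above 0 in that comparison, and 7.96% were lower with an unadjusted p under 0.05. In CBD against SNL 8 of 12 were above 0, 4 with an unadjusted p under 0.05, with a median of 0.23, where 49.9% of all tested genes were above 0, 50.1% were below and 6.5% were higher with an unadjusted p under 0.05. In CBD against sham 8 of 12 were below 0, 4 with an unadjusted p under 0.05, with a median of -0.10, where 49.9% of all tested genes were below 0, 50.1% were above and 8.87% were lower with an unadjusted p under 0.05. None passed edgeR's test after adjustment in any comparison. DESeq2 called 2 of the 12 lower in SNL against sham, against 1.65% of the genes to which it gave an adjusted p. It called 1 higher in CBD against SNL, against 0.74%, and 1 lower in CBD against sham, against 2.12%.

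Nrcam, an adhesion molecule of the initial segment, had 237, 300.5 and 312 CPM in CBD, 195, 216 and 233.5 CPM in SNL, and 291, 328 and 275 CPM in sham. All SNL libraries lay below all others. It had a log2 fold change of -0.47 (SE 0.13) in SNL against sham and 0.40 in CBD against SNL. Ank3, the gene of ankyrin G, had 0.34 in CBD against SNL, with 413, 428 and 469 CPM in CBD against 306, 417 and 315 CPM in SNL. Sptbn4, the spectrin of the initial segment, had a log2 fold change of -0.53 (SE 0.13) in CBD against sham.

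Of 7 genes for intracellular fibroblast growth factors and calmodulin, which bind the C-terminus of alpha subunits, 1 had an unadjusted p under 0.05 in each comparison, a proportion close to the 13.8%, 13.7% and 16.3% of all tested genes in SNL against sham, CBD against SNL and CBD against sham. Fgf14 had a log2 fold change of 0.45 (SE 0.13) in CBD against SNL, with 26.96, 28.9 and 29.9 CPM in CBD and 21.4, 18.9 and 22.3 CPM in SNL. Fgf12 had one of 0.35 in SNL against sham and 0.48 in CBD against sham, with 108, 103 and 107 CPM in CBD, 102, 92.6 and 96.8 CPM in SNL, and 70.5, 62.0 and 95.4 CPM in sham. The medians of the 7 genes were -0.04, 0.17 and 0.13 for SNL against sham, CBD against SNL and CBD against sham.

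The 13 regulators of sodium channel splicing and transcription, among them neuronal RNA-binding proteins, had a median log2 fold change of -0.25 in SNL against sham, with 5 of 13 lower at an unadjusted p under 0.05, against 7.96% of all tested genes. In CBD against SNL, 12 of 13 were above 0, against 49.9% of all tested genes, and 3 were higher at an unadjusted p under 0.05, against 6.5%, with a median of 0.13. In CBD against sham 2 were higher and 1 lower at an unadjusted p under 0.05, against 7.41% and 8.87% of all tested genes, with a median of -0.08. Ptbp2, a splicing repressor of immature neurons, had 102, 112.5 and 125 CPM in CBD, 95.1, 73.9 and 95.2 CPM in SNL, and 75.3, 86.2 and 88.9 CPM in sham. CBD lay above both other groups, with log2 fold changes of 0.36 against SNL and 0.44 against sham. Pum2, an RNA-binding protein of the Pumilio family known to repress sodium channel translation, had 168, 181 and 201 CPM in CBD and 149, 141 and 149 CPM in SNL, with a log2 fold change of 0.33.

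Among 12 kinases, ubiquitin ligases and proteases that act on sodium channels, 4 had an unadjusted p under 0.05 and were lower in SNL than in sham, against 7.96% of all tested genes, and the median of the 12 was -0.18. Prkca, a protein kinase C, had 110.4, 86.0 and 154 CPM in SNL against 232, 311 and 188 CPM in sham, a log2 fold change of -1.06 (SE 0.30) with an adjusted p of 0.232 in edgeR's test and 0.0247 in DESeq2. In CBD against SNL, 10 of 12 were above 0, against 49.9% of all tested genes, and 3 were higher with an unadjusted p under 0.05, against 6.5%. One of these was Nedd4, a ubiquitin ligase that removes channels from the surface, with 501, 498 and 510 CPM in CBD against 389, 425.5 and 401 CPM in SNL and a log2 fold change of 0.31 (SE 0.09). Its adjusted p was 0.0303 in DESeq2, and none of the 12 passed in edgeR's test. In CBD against sham 8 of 12 were below 0, against 49.9% of all tested genes, with 3 higher and 2 lower at an unadjusted p under 0.05, against 7.41% and 8.87%.

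The sodium pump, which restores the sodium gradient that these channels spend, had 9 genes on the list. In SNL against sham, 7 of 9 were above 0 by the fitted fold change, against 51.6% of all tested genes, with a median of 0.25, and 1 was higher and 1 lower with an unadjusted p under 0.05, against 5.83% and 7.96%. Atp1b3, a pump beta subunit, had a log2 fold change of 0.40, with an unadjusted p under 0.05 only. In CBD against SNL 8 of 9 were below 0, against 50.1% of all tested genes, with a median of -0.11. With an unadjusted p under 0.05, 1 of the 9 was lower, against 7.2% of all tested genes. It was Fxyd7, a small brain regulator of the pump, with a log2 fold change of -0.58.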

How the data were processed

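The authors deposited a table of expected counts per gene for the 9 hippocampal libraries, and the submitters' processing notes name RSEM, which splits ambiguous reads between candidate transcripts, and the mouse build GRCm39. Versions, aligner, annotation and read filters were not given in the sources used here. Per the labels' protocols, TRIzol was used for extraction and 1.3 ug of RNA went into a SMARTER mRNA-seq kit. Expected counts were rounded to whole numbers. edgeR 4.0.16 (R 4.3.3) kept 17967 genes with filterByExpr, scaled by TMM and fitted a quasi-likelihood model on all 9 libraries, with group as its factor. Its F test used Benjamini-Hochberg adjustment over all 17967 genes and a threshold of 0.05. SEs were obtained by dividing each fold change by the root of its F value. Alternatives were DESeq2's Wald test (1.42.0) and size factors, no filter or one of 1 CPM in 3 libraries, only the 6 libraries compared, a replicate block, libraries left out, and offsets for GC content and length. For the offsets, splines of 5 degrees of freedom were fitted to the 98.2% of tested genes with values in GENCODE transcripts of the older GRCm38 build. No GRCm39 coordinates are given. The tests were tried on simulated data. The genes and lists were chosen with earlier results of these data known. A few items are not reported here. The rule for named genes took the sodium channel genes, up to 3 genes with the smallest p from each partner list and comparison, the 3 genes nearest each member, and up to 2 genes of each marker list. The counting error behind these levels is small at 16972620 or more counts a library, and the spread between libraries sets the precision.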

Additional observations from a re-analysis of the deposited data

How the results depend on the processing

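The direction and side of the threshold were kept by most values over 19 alternatives, of which all but DESeq2 called 0 of the 7 genes. DESeq2 called 2 in CBD against SNL. With libraries left out, the share of all tested genes at an unadjusted p under 0.05 was not computed. Over all genes, SNL against sham gave 253 calls with no filter on low counts, 363 with DESeq2, 1 without the 3 libraries with hypothalamic transcripts (chosen after seeing the data) and 0 to 8 with 1 library left out, against 0. CBD against SNL gave 1, 156 and 2 in the same settings, 2 when GC and length offsets were added to leaving out the 3 libraries, and 0 to 2 with 1 library left out. CBD against sham gave 56, 380 and 20, then 13 with the offsets added, 1 with only the 6 libraries compared and 0 to 17 with 1 left out. Members at an unadjusted p under 0.05 numbered 0 without the 3 libraries and 1 with offsets added in SNL against sham (1 to 5 with 1 library left out), and 1 with both in CBD against SNL (2 to 4). In CBD against sham they numbered 2 with no filter and 0 with 6 libraries, with offsets, with the block and offsets, and with offsets without the 3 libraries (0 to 3).

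The median over the members was -0.20 without the 3 libraries and with offsets in SNL against sham (-0.37 to -0.27 with 1 library left out). It was 0.41 without the 3 libraries and 0.28 with offsets added in CBD against SNL (0.17 to 0.34). In CBD against sham it was 0.14 with the replicate block, -0.048 with offsets and -0.049 with both (-0.07 to 0.10). Signs turned as follows. With offsets, Scn2b stood at 0.07 in SNL against sham, Scn1a at -0.039 in CBD against SNL and Scn2a at -0.048 in CBD against sham, and the block with offsets gave 0.069, -0.039 and -0.049. Without the 3 libraries, SNL against sham gave -0.092 for Scn1a and -0.25 for Scn4b, CBD against SNL gave 0.25 for Scn4b, and CBD against sham gave 0.088 for Scn3b. With offsets as well, these were -0.026 for Scn1a, -0.13 for Scn4b and 0.093 for Scn2b in SNL against sham, 0.26 for Scn4b in CBD against SNL, and -0.032 for Scn2a and 0.02 for Scn8a in CBD against sham. With 1 library left out, Scn2b ran from -0.04 to 0.008 in SNL against sham and from -0.10 to 0.013 in CBD against SNL, Scn3b from -0.34 to 0.075 and Scn4b from -0.26 to 0.93 in CBD against sham. The cause was not tested.

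Replicate numbers did not pair the libraries: same-numbered deviations correlated between -0.27 and 0.19 over 17967 genes. The fit with the replicate block called 0 genes in each comparison and gave 0.57 for Scn2a and 0.58 for Scn3a in CBD against SNL, at an edgeR adjusted p of 0.49 for both. The number of libraries, 3 a group, limits the precision of every value.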
